A study of Homo sapiens with 3 samples.

Results

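The genes described here are the transcriptional output and brakes of ERK signalling: the phosphatases DUSP1, DUSP4, DUSP5 and DUSP6, the Sprouty proteins SPRY2 and SPRY4, the SPRED proteins SPRED1 and SPRED2, and the ETS transcription factors ETV4 and ETV5. They were chosen by name, and all array probe sets assigned to one of them alone were taken, which gave 25 probe sets for 10 genes among 41097 single-gene probe sets for 19775 genes. Expression was measured in UM-UC-3, a human bladder cancer cell line grown in serum-containing medium, 48 h after transfection with 75 nM of a negative control siRNA, DANCR siRNA1 or DANCR siRNA2. DANCR is a long noncoding RNA. Each group was 1 Affymetrix array, 3 arrays in all, so every difference below is a size on these arrays with no replicate error and no test. All 3 groups received lipid reagent and an siRNA, and the comparison had no untransfected group.

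The 3 siRNA sequences differ as follows, with the 19 bases before the overhang in capitals. They are shown because the results below differ between the DANCR siRNAs.
control siRNA: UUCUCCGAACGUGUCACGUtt
DANCR siRNA1: GCGUACUAACUUGUAGCAAtt
DANCR siRNA2: GAGCUAGAGCAGUGACAAUtt

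Growth factor receptors signal through RAS, RAF and MEK to the kinase ERK, which enters the nucleus and switches on a set of genes within hours. Among them are the genes that limit the pathway: DUSP proteins remove the phosphates that activate ERK, while Sprouty and SPRED proteins act upstream, between the receptor and RAF. ETV4 and ETV5 are ETS factors of the PEA3 group whose transcription also follows ERK activity, so the levels of these mRNAs are widely used as a readout of the pathway.

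The series supplied intensities on a linear scale, and values at or below the 50th percentile of all values (10.5) were treated as a floor. DANCR had an intensity of 671 with the control siRNA, 116 with DANCR siRNA1 and 126 with DANCR siRNA2, which fits the siRNA names. Inhibition rates in the labels, 0.1734 and 0.1876, equal the ratios of these intensities to the digits given and are no independent check. The ratio of the 3' to the 5' probe set was 11.9, 11.8 and 14.4 for ACTB and 1.25, 1.29 and 1.35 for GAPDH in that order of arrays, highest with DANCR siRNA2. Of the 16 urothelial markers, 6 were measured, with KRT18 at 1315, 711 and 1022. The 4 uroplakins UPK1A, UPK1B, UPK2 and UPK3A, which define mature urothelium, lay at or below the floor on all arrays. Marker lists of leukocytes, endothelium, fibroblasts and erythroid or hepatic cells had 2 measured genes each, with summed intensities from 29.9 to 79.7. Those measured were CD3D, CD79A, PECAM1, TIE1, COL1A1, PDGFRB, HBB and TTR, from 12.5 (CD3D) to 63.2 (COL1A1) in the control. The measured urothelial markers other than KRT18 ran from 12.5 (PPARG) to 28.2 (KRT7) there. PTPRC, LYZ, VWF, CDH5, DCN, LUM, ALAS2 and ALB were not above the floor.

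All 10 genes were measured, and 21 of their 25 probe sets lay above the floor on all 3 arrays. The other 4, of ETV5, SPRED1 and SPRED2, were below it on all arrays. A log2 ratio of -1 or 1 is a 2-fold difference, and each gene is represented by its probe set with the highest mean intensity. With DANCR siRNA1, 1 of 10 genes was at least 2-fold lower than in the control and none was 2-fold higher, where 1.75% of the 12447 measured genes were 2-fold lower and 1.86% higher. With DANCR siRNA2, none of the 10 passed 2-fold, against 3.36% of all measured genes in either direction. None passed 2-fold in the same direction with both siRNAs, against 0.996% of all genes. The members' median log2 ratio was -0.12 with DANCR siRNA1 and -0.05 with DANCR siRNA2, beside 0.00 for all measured genes in each comparison. Most of the ERK feedback genes therefore differed little from the control array, and the larger differences sat in DUSP5 with DANCR siRNA1 and ETV5 with DANCR siRNA2.

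**Figure D1:**
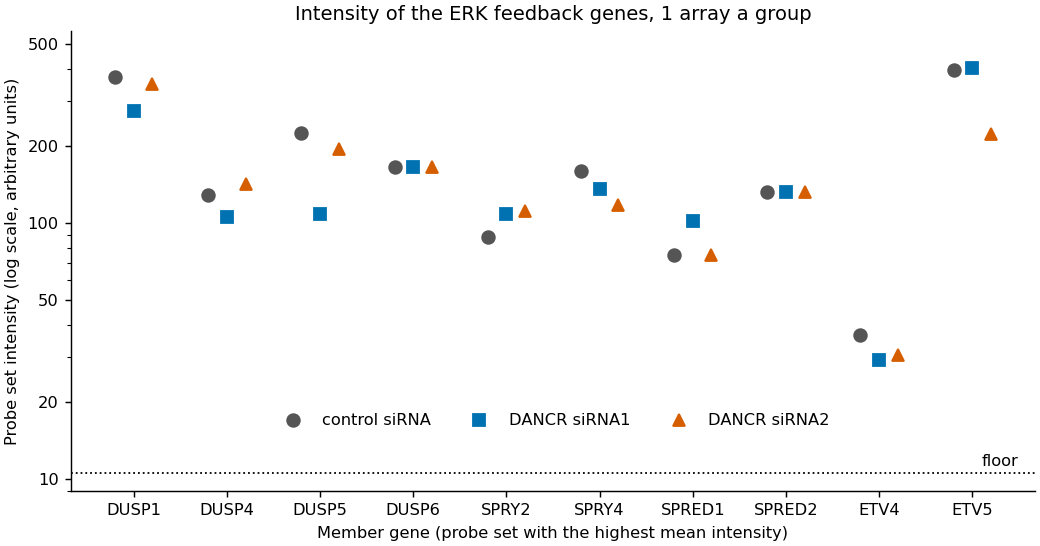
Intensity (log scale, arbitrary units) of each ERK feedback gene on the control siRNA (circle), DANCR siRNA1 (square) and DANCR siRNA2 (triangle) array, 1 array a group and so without error bars; the dotted line is the floor of 10.5. DUSP5 is low only in the square, at 108, and ETV5 is low only in the triangle, at 223.

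Some probe sets carried exactly the same value on several arrays. This held on all 3 arrays for 3 of the 21 measured probe sets of these genes (relative tolerance 1e-09) and for 14.7% of all probe sets brighter than the floor on average. Counting those 3, 6 of the 21 equalled the control with DANCR siRNA1 and 5 with DANCR siRNA2. A ratio of exactly 0 in this table may therefore come from the authors' scaling, and it is not a measurement that the mRNA stayed constant.

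Of the nuclear phosphatases, DUSP5, which is specific for ERK, differed most. DUSP5 had an intensity of 225 with the control siRNA, 108 with DANCR siRNA1 and 194 with DANCR siRNA2. The DANCR siRNA1 array was the low one, 2.08-fold below the control (log2 ratio -1.06), and the DANCR siRNA2 array lay 1.16-fold below it (-0.22). A ratio as low as that of DUSP5 with DANCR siRNA1 was found in 1.52% of measured genes, and the value is just past 2-fold. DUSP5 has 1 probe set on the array, so no second probe set bears on it.

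DUSP1, an immediate early phosphatase that also acts on the stress kinases p38 and JNK, had intensities of 372, 274 and 347 with the control siRNA, DANCR siRNA1 and DANCR siRNA2. It was lowest with DANCR siRNA1, at a log2 ratio of -0.44, and nearly level with the control with DANCR siRNA2 (-0.10). Its 2 other probe sets were dim, at 19.2 and 12.5 in the control, and both gave 0.00 with DANCR siRNA1.

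DUSP4, a nuclear phosphatase of ERK and JNK, had intensities of 129, 106 and 141 in the same order. Its probe sets disagreed with DANCR siRNA1, where the log2 ratios were -0.28, 0.57 and -0.21. With DANCR siRNA2 all 3 were slightly above the control, from 0.14 to 0.19. The direction of DUSP4 with DANCR siRNA1 thus depends on the probe set read.

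DUSP6, the cytoplasmic phosphatase specific for ERK and a common marker of its activity, had the same intensity of 166 on all 3 arrays on its brightest probe set. A second DUSP6 probe set was at 153, 123 and 118, which gives log2 ratios of -0.31 with DANCR siRNA1 and -0.38 with DANCR siRNA2. The third DUSP6 probe set was at 123, 123 and 120, with ratios of 0.00 and -0.04. No DUSP6 probe set was above the control with either siRNA, and none approached 2-fold.

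**Figure D2:**
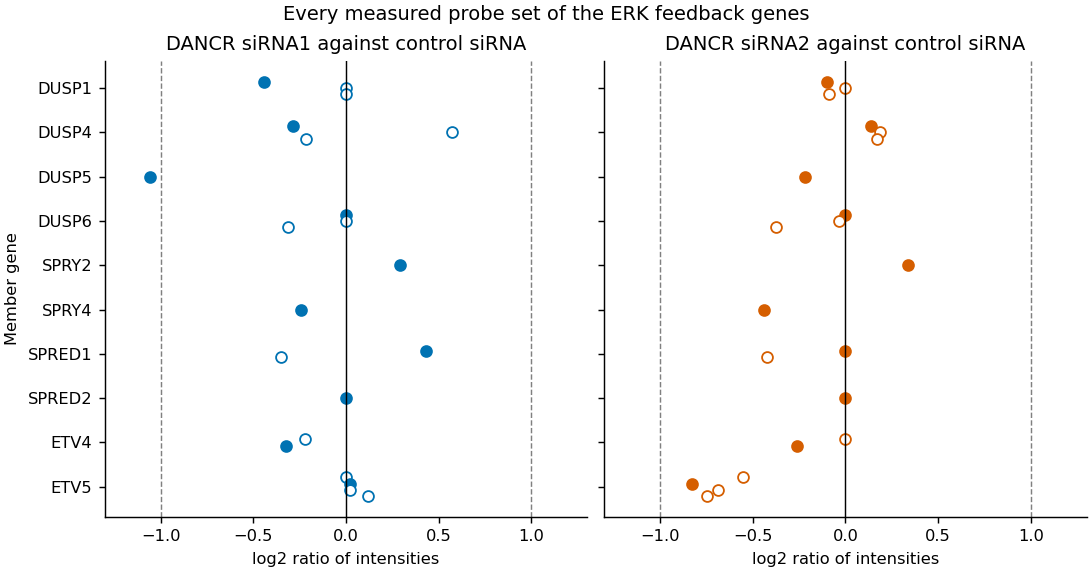
Log2 ratio to the control siRNA array (x axis) of all 21 measured probe sets of the ERK feedback genes (y axis), left with DANCR siRNA1 and right with DANCR siRNA2; filled points stand for the gene, open points are further probe sets, and dashed lines mark 2-fold. The 4 probe sets of ETV5 lie together near 0 on the left and between -0.83 and -0.55 on the right, while those of DUSP4 spread from -0.28 to 0.57 on the left.

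The ETS factors parted from each other. ETV5 had intensities of 396 with the control siRNA, 402 with DANCR siRNA1 and 223 with DANCR siRNA2. The DANCR siRNA2 array alone was low, 1.78-fold below the control (log2 ratio -0.83), and DANCR siRNA1 was at the control level (0.02). A ratio as low as that of ETV5 with DANCR siRNA2 was found in 2.0% of measured genes.

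The further ETV5 probe sets gave the same picture. The second was at 210, 210 and 143, the third at 143, 156 and 85.4, and the fourth at 33.5, 34.0 and 20.8. Over the 4 measured probe sets the log2 ratios ran from -0.83 to -0.55 with DANCR siRNA2 and from 0.00 to 0.12 with DANCR siRNA1. These probe sets share 1 array and are not replicates. Among 1078 genes with at least 4 measured probe sets, 0.557% had every one at least 0.5 lower (log2) with DANCR siRNA2, a yardstick chosen after the ETV5 values were seen. The DANCR siRNA2 array also had the highest 3'/5' ratios, 14.4 for ACTB against 11.9 in the control, and their part in the ETV5 difference was not tested.

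ETV4, the closest relative of ETV5 among these genes, had intensities of 36.5, 29.2 and 30.5. Both DANCR siRNA arrays were slightly below the control, with log2 ratios of -0.32 and -0.26. Its second probe set, at 15.9 in the control and so not far above the floor, gave -0.22 and 0.00. ETV4 therefore did not show the difference between the siRNAs that ETV5 showed; the gap between the genes could not be tested.

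**Figure D3:**
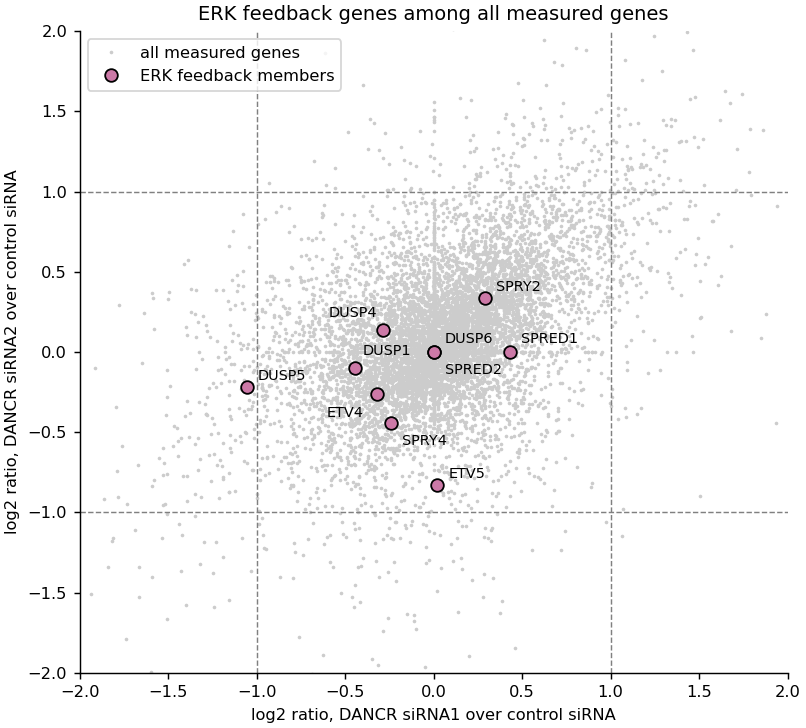
Log2 ratio to the control with DANCR siRNA1 (x axis) and with DANCR siRNA2 (y axis) for the 10 ERK feedback genes (large points) and all 12447 measured genes (small points, of which 36 lie beyond the axes); dashed lines mark 2-fold and both ratios share the control array. DUSP5 sits at -1.06 and -0.22 and ETV5 at 0.02 and -0.83, and the other members lie at most 0.44 from 0 on both axes.

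The Sprouty genes pointed in opposite directions. SPRY2, which interferes with RAS and RAF activation downstream of receptors, had intensities of 88.2, 108 and 111. Both DANCR siRNA arrays were above the control, by log2 ratios of 0.29 and 0.34. SPRY4, a paralogue with a similar role, had intensities of 160, 135 and 118. Both DANCR siRNA arrays were below the control for SPRY4, by log2 ratios of -0.24 and -0.44. Each of these genes was read by a single probe set, and 28.5% of measured genes differed from the control by as much as SPRY2 with DANCR siRNA2, and 20.6% by as much as SPRY4.

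The SPRED proteins bind neurofibromin and bring it to RAS at the membrane. SPRED1 had intensities of 75.2, 102 and 75.2 on its brighter probe set, so that DANCR siRNA1 was the high array (log2 ratio 0.43) and DANCR siRNA2 equalled the control. The dimmer SPRED1 probe set was at 37.2, 29.2 and 27.7 and was below the control with both siRNAs (-0.35 and -0.42). SPRED2 had 132 on all 3 arrays on its only measured probe set. No direction can be given for either SPRED gene from these values.

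Over the 6 members with at least 2 measured probe sets, the gap between a gene's highest and lowest log2 ratio had a median of 0.38 with DANCR siRNA1 and 0.27 with DANCR siRNA2. Over all 6008 such genes it was 0.26 and 0.24. On the probe sets that stand for the genes, ratios to the control reached at most 0.44 in size outside DUSP5 and ETV5. A further DUSP4 probe set reached 0.57 with DANCR siRNA1. DUSP5 itself, SPRY2 and SPRY4 had no second probe set for this comparison.

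The direct comparison of the DANCR siRNAs placed DUSP5 and ETV5 at opposite ends. DUSP5 was 1.79-fold lower with DANCR siRNA1 than with DANCR siRNA2 (log2 ratio -0.84), and ETV5 was 1.80-fold higher (0.85). No member was 2-fold apart between the siRNAs, against 3.91% of all measured genes. At 1.5-fold, 1 member was higher and 1 lower with DANCR siRNA1, beside 5.21% and 8.56% of all genes. The members' median in this comparison was -0.02, while DANCR itself differed by 1.08-fold between the 2 arrays.

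Promoter sequence from RefSeq on GRCh38.p14 was searched for 6 of the 10 genes, DUSP1, DUSP6, SPRY2, SPRY4, SPRED1 and SPRED2, with 9 start sites in all. DUSP4, DUSP5, ETV4 and ETV5 were not searched, and the search left out the chromosome of DUSP4. The 250 bases before each start were searched on both strands for the ETS core CCGGAA, the AP-1 site TGANTCA, the cyclic AMP response element TGACGTCA, the CArG box of serum response factor, and the octamers TGAATGAA, TGAATGGA, TCAATGAA and TCAATGGA of CIC, the repressor that ERK signalling relieves. The 3 matches are shown with up to 40 bases on each side, on the gene's strand, with the match in capitals.
DUSP1: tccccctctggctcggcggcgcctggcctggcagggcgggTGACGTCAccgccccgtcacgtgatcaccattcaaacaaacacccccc
DUSP6: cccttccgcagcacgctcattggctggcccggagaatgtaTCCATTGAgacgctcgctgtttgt
SPRY2: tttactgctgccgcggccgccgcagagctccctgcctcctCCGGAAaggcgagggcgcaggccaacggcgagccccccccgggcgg

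The DUSP1 window, chr5:172771273-172771360 on the minus strand, holds a cyclic AMP response element, found in 1.65% of all 35116 promoter windows in the table. The DUSP6 window, chr12:89352502-89352565 on the minus strand, holds the CIC octamer TCAATGGA read from the opposite strand, and 3.18% of all windows hold one of the 4 octamers. The SPRY2 window, chr13:80341223-80341308 on the minus strand, holds the ETS core, found in 14.5% of windows. The AP-1 site and the CArG box, present in 6.57% and 1.16% of all windows, were not among these letters in any of the 9 windows. A match describes the letters and is not evidence of binding. On the probe sets that stand for them, the genes with these 3 matches had log2 ratios of -0.44, 0.00 and 0.29 with DANCR siRNA1. With DANCR siRNA2 the ratios were -0.10, 0.00 and 0.34. The DUSP6 values come from identical intensities. Further DUSP6 probe sets gave -0.31 and 0.00 with DANCR siRNA1, and -0.38 and -0.04 with DANCR siRNA2. The further, dim DUSP1 probe sets gave 0.00 with DANCR siRNA1.

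The relatives of these genes were read from lists. Of 8 further DUSP genes 5 were measured, and DUSP3 was at least 2-fold higher with both siRNAs. DUSP3, a small phosphatase also called VHR that acts on ERK and JNK, had intensities of 64.9 in the control, 139 with DANCR siRNA1 and 143 with DANCR siRNA2. It was 2.14-fold and 2.20-fold higher, in a background where 0.715% of measured genes were 2-fold higher with both. Its second probe set gave log2 ratios of 0.90 and 1.26 and the third 0.66 and 0.77, all above the control. The largest difference shared by both siRNAs within the DUSP genes measured was therefore in a gene outside the ERK feedback group.

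Of 4 further Sprouty, SPRED and PEA3 genes 3 were measured and none passed 2-fold. Among all measured genes, 1.86% were 2-fold higher and 1.75% lower with DANCR siRNA1, and 3.36% passed in either direction with DANCR siRNA2. SPRED3 was at 57.8, 43.9 and 40.9, with log2 ratios of -0.40 and -0.50. ETV1, which completes the PEA3 group, was dim at 17.2, 20.9 and 17.2, with ratios of 0.28 and 0.00.

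Upstream, 17 of 24 listed genes of the RAS to ERK cascade were measured, with medians of -0.04 and 0.06. Of these, 1 was 2-fold lower and none 2-fold higher with DANCR siRNA1, beside 1.75% and 1.86% of all measured genes. None passed 2-fold with DANCR siRNA2, against 3.36% of all genes in either direction. KSR1, the scaffold that holds RAF, MEK and ERK together, had intensities of 83.5, 36.0 and 44.5, 2.32-fold lower with DANCR siRNA1 and 1.88-fold lower with DANCR siRNA2. A dimmer KSR1 probe set gave -0.28 with both. MAP2K1, which encodes the ERK kinase MEK1, was at 583, 369 and 297 on its only probe set, with log2 ratios of -0.66 and -0.97. PTPN11, which encodes the phosphatase SHP2 that RAS activation needs, was at 828, 1316 and 1363. Its 4 measured probe sets were all higher, from 0.63 to 0.95 with DANCR siRNA1 and from 0.68 to 0.94 with DANCR siRNA2. MAP2K1 and PTPN11 lie outside the naming rule and were chosen after their values were seen. The cascade thus held genes on both sides of the control with each siRNA.

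Of 14 other brakes of RAS and ERK 11 were measured, with medians of 0.05 with DANCR siRNA1 and 0.21 with DANCR siRNA2, and 0 and 1 of them past 2-fold. IL17RD, also called Sef, a membrane inhibitor of ERK signalling, was at 12.5 in the control, 15 with DANCR siRNA1 and 27.2 with DANCR siRNA2. It was 2.17-fold higher with DANCR siRNA2, where 2.15% of all genes were 2-fold higher, and both other arrays lay near the floor. With DANCR siRNA2, 4 of the 11 were at least 1.5-fold higher and none was 1.5-fold lower, beside 8.74% and 4.28% of all genes. With DANCR siRNA1, 0 of the 11 were 1.5-fold higher and 0 were 1.5-fold lower, beside 7.13% and 6.03% of all genes. The difference between the siRNAs was not tested.

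Of 11 further ETS and ternary complex factors 10 were measured, with medians of 0.03 and 0.12. ELK4, a partner of serum response factor that ERK phosphorylates, was at 67.9, 79.5 and 162, 2.38-fold higher with DANCR siRNA2 and 1.17-fold with DANCR siRNA1. Its 3 other measured probe sets, near the floor, gave 0.22, 0.00 and 0.76 with DANCR siRNA2. With DANCR siRNA2, 1 of the 10 was 2-fold higher and none 2-fold lower, beside 2.15% and 1.21% of all measured genes. None of the 10 passed 2-fold with DANCR siRNA1, where 1.86% of all genes were higher and 1.75% lower.

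The other genes known as outputs of ERK, a list that also held the repressor CIC, had 21 of 28 members measured. With DANCR siRNA1, 15 of the 21 were below the control and 6 above, with a median of -0.37. Of all measured genes, 39.5% were below and 42.2% above. With DANCR siRNA2, 14 were below and 6 above, with a median of -0.14, where 36.2% of all genes were below and 45.0% above. Both comparisons use the same control array. The list was chosen with earlier results of these data known, so its lean to lower values is not independent evidence. At 2-fold, 3 were lower and 1 higher with DANCR siRNA1, beside 1.75% and 1.86% of all measured genes. With DANCR siRNA2, 1 was lower and 2 were higher, beside 1.21% and 2.15% of all genes.

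The outputs past 2-fold lower were CCND1, IER3 and FOSL1. CCND1, cyclin D1, was at 1044, 430 and 96.2. The study picked it on these samples, so it is not independent evidence. IER3, an early response gene whose protein ERK phosphorylates, was at 429, 206 and 266, 2.08-fold and 1.61-fold lower.

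FOSL1 encodes FRA1, an AP-1 subunit whose level follows sustained ERK activity. It was at 376, 186 and 362, which is 2.03-fold lower with DANCR siRNA1 and 1.04-fold lower with DANCR siRNA2. The low array of FOSL1 was the same as that of DUSP5. Both genes have a single probe set here.

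The outputs past 2-fold higher were EGR1 and EREG. EREG, epiregulin, a ligand of the EGF receptor, was at 48.9, 95.5 and 107, 1.95-fold and 2.18-fold higher, while its dimmer probe set gave log2 ratios of 0.30 and 0.18. EGR1, the immediate early zinc finger factor, was at 22.8, 113 and 66.0. Its further probe sets were below the floor in the control. The output genes therefore held members on both sides of the control. More of them lay below it, in a list chosen with earlier results of these data known.

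**Figure D4:**
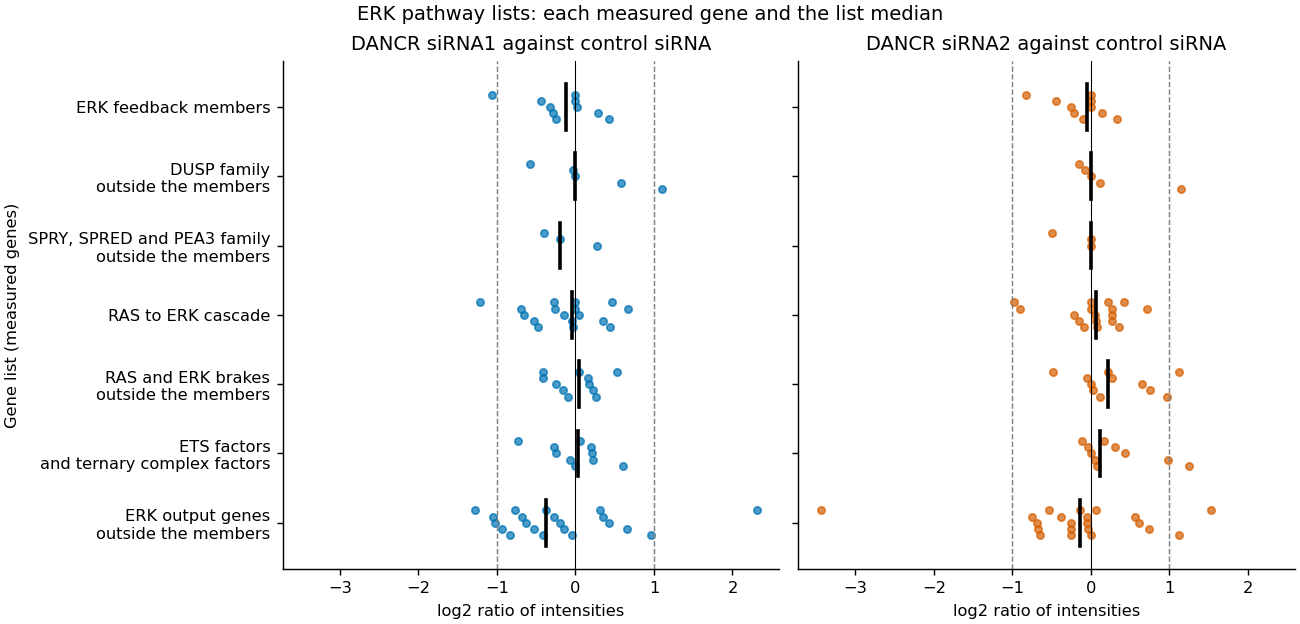
Log2 ratio to the control (x axis) of every measured gene of the 10 ERK feedback genes and of the 6 further lists (y axis), left with DANCR siRNA1 and right with DANCR siRNA2; black bars are list medians and dashed lines mark 2-fold. The output genes have the lowest median, -0.37, on the left, and the feedback genes' medians are -0.12 and -0.05.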

How the data were processed

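Total RNA of 3 UM-UC-3 samples was amplified to biotin-tagged cRNA and read on Affymetrix arrays, per the labels' protocols. The deposited values are linear-scale intensities, with 1 value for a probe set on each array; the authors' scaling is not given in the sources used here, and GCOS 1.4 is named in the submitters' processing notes. Of 54675 probe sets, 41097 named a single gene in the platform annotation supplied, 1801 named several and 11777 none; gene results omit the 62 control probe sets. Values under the 50th percentile were raised to it before log2. A gene was measured if 1 or more arrays lay above that floor, and the probe set with the highest mean stood for it. No test was run, since each group had 1 array, and their number limits the precision. The procedure was tested on simulated data. The members and lists were chosen with earlier results of these data known. The genes named were all members and DANCR, with up to 5 genes past 2-fold per list, or, where none passed, the 2 with the largest ratio. The rule also took the 3 genes nearest in both ratios to the member with the largest mean absolute ratio. Python 3.11.15, numpy 2.4.6, pandas 2.3.3 and matplotlib 3.10.9 were used. Alternatives were scaling, floor, probe set choice and threshold.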

Additional observations from a re-analysis of the deposited data

How the results depend on the processing

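DUSP5 was 2-fold lower with DANCR siRNA1 under both scaling alternatives, with log2 ratios from -1.09 to -1.06. Its single probe set is well above each floor, so the floor and probe set alternatives could not move it. ETV5 stayed between -0.87 and -0.72 with DANCR siRNA2. At a threshold of 3-fold DUSP5, at 2.08-fold, no longer passed with DANCR siRNA1. At 1.5-fold, 1 of the 10 members was lower with DANCR siRNA2, beside 4.28% of all genes. At that threshold 1 was higher and 1 lower with DANCR siRNA1 than with DANCR siRNA2, beside 5.21% and 8.56% of all genes. The members' median with DANCR siRNA1 was 0.00 by the median over probe sets, and 0.00 without probe sets ending in _s_at, _x_at or _a_at, where DUSP1, SPRY4 and ETV4 had no value and 7 members remained. Of 201 member ratios under the alternatives, 193 moved by at most 0.1 and 8 moved further. Among those 8 were DUSP1 (0.00 with DANCR siRNA1 by the median over probe sets) and SPRED1 (0.04 with DANCR siRNA1 and -0.21 with DANCR siRNA2 by that median). No paired analysis was possible because each group had 1 array. At 1.5-fold the ERK output list had 3 of 21 genes higher and 8 lower with DANCR siRNA1, beside 7.13% and 6.03% of all genes, and 4 and 5 with DANCR siRNA2, beside 8.74% and 4.28%; without a floor 2 of them were 2-fold higher with DANCR siRNA1. With the floor at the 70th percentile, 2 urothelial markers were measured. Low signal over background limits ETV4 and IL17RD.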

Other observations

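Further ERK-linked genes chosen after their values were seen add to the account of the feedback genes. PHLDA1, a gene often read beside DUSP6 as an ERK output, had 6 measured probe sets that disagreed. Their log2 ratios ran from -2.01 to 0.04 with DANCR siRNA1 and from -1.22 to 1.03 with DANCR siRNA2. HBEGF, a ligand of the EGF receptor, was at 157, 91.9 and 132 with the control siRNA, DANCR siRNA1 and DANCR siRNA2, and its 2 measured probe sets gave -0.77 and -0.90 with DANCR siRNA1. PLAUR, the urokinase receptor, was at 377, 212 and 240, and all 3 of its probe sets were below the control with both siRNAs.

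SPRY4-IT1, a transcript from within the SPRY4 locus and also chosen after its values were seen, had intensities of 121, 98.9 and 71.1. The log2 ratios of SPRY4-IT1 on this probe set, -0.29 and -0.77, point the same way as those of SPRY4, -0.24 and -0.44. Its other probe set was at the floor of 10.5 on every array and gives no direction.

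DUSP5 had the largest mean absolute ratio among the members. The 3 genes nearest to it over both log2 ratios, among 11887 genes above the floor on all 3 arrays, were ARL6IP4 (distance 0.034), HNRNPA0 (0.038) and TAF4B (0.044). With 3 arrays, 13 genes lay within 0.1 of DUSP5.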
